A study of Mus musculus with 25 samples.

Results

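Myc and 9 nucleolar genes that serve ribosome production were followed in CD8+ T cells isolated from B16F10 tumours, a transplanted mouse melanoma, in C57BL/6 mice. The genes were listed by name, and all 10 of the 10 are among the 23366 symbols of the deposited table; each passed the filter on low values, which left 12251 genes to test. Bulk RNA sequencing covered 3 libraries of the Prdm1/c-Maf cDKO (a conditional double knockout), 3 of the Prdm1 cKO (a conditional single knockout), 3 of the c-Maf cKO and 16 of wild type, written WT in the labels. All groups were tumour-bearing and none received another agent according to the labels. Prdm1 encodes the repressor Blimp-1 and Maf the bZIP factor c-Maf. The Cre line behind the knockouts, the age of the mice and whether each library came from its own animal are not given here, so the p-values cover only the spread between these libraries, which may be technical.

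Myc is a transcription factor of the basic helix-loop-helix family that binds DNA as a dimer with Max. In CD8+ T cells it is induced by antigen and cytokine signals and drives cell growth, partly by raising transcription of nucleolar genes and by RNA polymerase I. Ribosomes are assembled in the nucleolus: the 45S precursor is transcribed by RNA polymerase I, modified by small nucleolar ribonucleoproteins (snoRNPs), cut, and packed with ribosomal proteins. In B cells that become plasma cells, Blimp-1 is known to repress Myc.

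Values are the authors' normalised signal per gene. Its scale is not stated and its low values shrink with transcript length, so levels of different genes are compared here as length-scaled signal. Column totals ran from 389650 to 475956, read depth is unknown, and 0 of 300 pairs of columns were identical. In the table's order the columns fall into 3 sets, each with 1 knockout group: set 1 holds the Prdm1 cKO and 7 wild-type libraries, set 2 the c-Maf cKO and 4, and set 3 the cDKO and 5. The sets are positions in the table, not a labelled batch. In set 1 all library codes begin with A. In set 3 the wild-type codes begin with B and the cDKO codes with A or C. Genotype and code letter therefore cannot be told apart within set 3. Among the 16 wild-type libraries alone, 2.75% of genes differed between sets (limma F test, adjusted p under 0.05). Prdm1 signal was 1.18 to 4.69 in cDKO and 0.41 to 4.71 in Prdm1 cKO libraries, against 6.45 to 24.9 in wild type. Maf was 0 to 0.18 in cDKO and 0, 0 and 0.93 in c-Maf cKO libraries, against 0.03 to 0.95 in wild type. The library labelled c-Maf cKO with the code C1 is the one at 0.93, within the wild-type range. The cDKO libraries A1 at 0.18 and A2 at 0.03 are within that range too. Maf did not pass the filter on low values. Without a filter it was not called in cDKO or c-Maf cKO against wild type (limma adjusted p = 0.305 and 0.958). Its signal is thus too low to check the loss of c-Maf in these libraries.

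Promoter sequence was at hand for 7 of the 10 members in a RefSeq table of the build GRCm38.p6, but not for Myc, Npm1 or Fbl. Searched were the 250 bases before the start that this table lists. The GC box GGGCGG, a site type for Sp1 factors, occurred on either strand in 6 of the 7, against 32.7% of 32851 promoters. The canonical E-box CACGTG that Myc and Max bind occurred in 0 of the 7, against 6.02% of all promoters, and the related CACGCG in 1 of the 7, that of Nolc1, against 7.62%. The Blimp-1 core AGNGAAAG was found in 0 of the 7, which do not include Myc, against 7.30%. Windows of 3 members ended before the annotated span of their own gene began, while the other windows reached into that span. Overlap with other genes was not checked. The windows of Nop56, Nop58, Polr1b and Wdr43 reach into their gene, hold 1 GC box each and are not printed. The 3 windows outside their gene are printed 5′ to 3′, with matches in capitals. Capitals mark GGGCGG or its reverse complement, and in Nolc1 also CACGCG, read on the other strand. No 2 matches overlap. The Ncl window lies on the minus strand of chr1:86359456-86359705 and holds 3 GC boxes, the Nolc1 window on the plus strand of chr19:46075597-46075846 holds 2, and the Dkc1 window on the plus strand of chrX:75095604-75095853 holds none of the 4 motifs.
Ncl: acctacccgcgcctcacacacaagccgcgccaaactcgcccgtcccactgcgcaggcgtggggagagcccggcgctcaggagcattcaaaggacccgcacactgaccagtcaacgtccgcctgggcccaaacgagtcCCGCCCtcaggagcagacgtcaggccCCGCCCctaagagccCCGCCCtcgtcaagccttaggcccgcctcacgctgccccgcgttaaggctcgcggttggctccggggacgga
Nolc1: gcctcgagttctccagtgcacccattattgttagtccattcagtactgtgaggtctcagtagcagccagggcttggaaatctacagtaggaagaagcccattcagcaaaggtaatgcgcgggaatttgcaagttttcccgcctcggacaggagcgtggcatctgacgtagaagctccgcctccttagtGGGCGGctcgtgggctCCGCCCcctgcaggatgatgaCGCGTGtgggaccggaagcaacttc
Dkc1: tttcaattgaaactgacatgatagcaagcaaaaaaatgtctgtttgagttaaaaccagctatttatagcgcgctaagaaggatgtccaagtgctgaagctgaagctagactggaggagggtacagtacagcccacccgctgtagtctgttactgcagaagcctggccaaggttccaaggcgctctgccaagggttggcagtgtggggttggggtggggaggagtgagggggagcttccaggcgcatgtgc
The 3 windows differ in base composition: GC content was 69.6% for Ncl, 56.4% for Nolc1 and 52.0% for Dkc1, with 27, 14 and 5 CpG dinucleotides against a median of 6 over all promoters. A match describes letters only, and the series holds no binding data.

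Myc was higher in the cDKO than in wild type, by 1.45-fold, and the 9 nucleolar genes did not pass the test. The cDKO libraries read 73.7, 58.7 and 78.9, the Prdm1 cKO libraries 47.9, 58.2 and 66.8, and the c-Maf cKO libraries 55.5, 50.6 and 43.8, against a lowest value of 36.9, a median of 49.1 and a highest of 65.2 in wild type. Of the cDKO libraries, 2 lay above all 16 wild-type ones and the third lay inside their range. The means were 70.4 ± 10.5 in cDKO, 57.6 ± 9.48 in Prdm1 cKO, 49.96 ± 5.87 in c-Maf cKO (SD, n = 3 each) and 48.6 ± 7.99 in wild type (n = 16). The log2 fold change of cDKO against wild type was 0.53 ± 0.15 (SE; limma adjusted p = 0.0185, 95% interval 0.23 to 0.84).

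Beside this 1 member of 10 that was called, 11.9% of all genes were called in the same comparison, 5.09% higher and 6.85% lower. The call of Myc held in 35 of 38 alternatives, with adjusted p between 0.0021 and 0.173. It ended without the cDKO library A2 (0.45, adjusted p = 0.173), without C2 (0.49, adjusted p = 0.0779) and with the macrophage and erythroid marker scores as covariates (0.50 ± 0.19, adjusted p = 0.123). Against the 5 wild-type libraries of its own column set, which read 36.9 to 55.6, the cDKO was 1.49-fold higher with no overlap (exact two-sided permutation p = 0.0179, the smallest that 56 splits allow; n = 3 and 5). Red-cell markers moved with the comparison: 3 of 5 tested erythroid genes were called higher, and the summed level of the 6 listed ran from 461 to 4240 in cDKO libraries against 1.38 to 1568 in wild type. Macrophage markers were below wild type in 15 of 15 genes (median -0.95, 1 called) and CD8 T cell markers in 8 of 8 (median -0.29, 1 called), and the 1 tested fibroblast and endothelium gene was called higher (1.08). The part of macrophage and erythroid markers in the result was tested only through the covariate fit, and that of the others was not tested. In these bulk samples, a change in the share of a cell type and a change in RNA per cell cannot be told apart.

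Prdm1 cKO stood between cDKO and wild type in mean Myc signal, and neither step passed the test. Its log2 fold change was 0.24 ± 0.15 against wild type (limma adjusted p = 0.361), and that of cDKO against Prdm1 cKO was 0.29 ± 0.19 (adjusted p = 0.586). For c-Maf cKO against wild type it was 0.05 ± 0.15 (adjusted p = 0.954), and for cDKO against c-Maf cKO 0.48 ± 0.19 (adjusted p = 0.116). The departure from additivity, cDKO minus both single knockouts plus wild type, was 0.24 ± 0.24 (adjusted p = 0.769). Comparisons against wild type share the same 16 libraries.

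**Figure D1:**
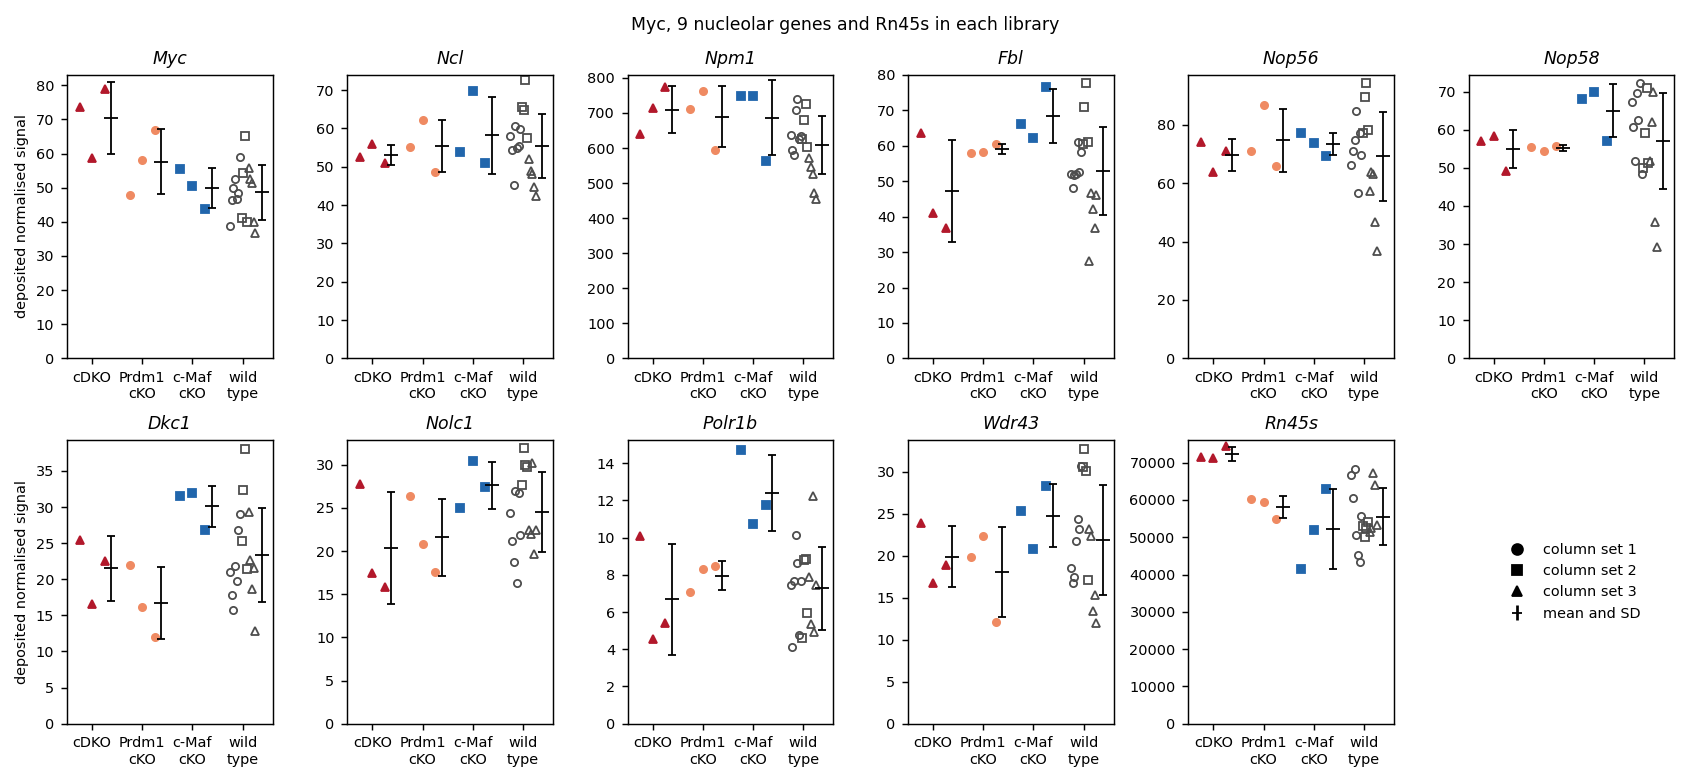
Deposited normalised signal (y axis, from 0) of Myc, the 9 nucleolar genes and Rn45s in each of 25 libraries by genotype (x axis); shapes mark the column set, and bars the mean and SD. For Myc, 2 of 3 cDKO libraries lie above all wild-type libraries, and for Rn45s 3 of 3, while for most nucleolar genes the groups overlap and the wild-type libraries of set 3 sit low.

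Ncl (nucleolin) and Npm1 (nucleophosmin) are abundant nucleolar proteins, the first an RNA-binding protein of pre-rRNA and ribosomal DNA chromatin, the second a chaperone. Npm1 had the highest signal of the members in every genotype. It read 639, 716 and 775 in cDKO, 712, 762 and 594 in Prdm1 cKO, and 749, 747 and 564 in c-Maf cKO libraries, against 455, 614 and 741 as the lowest, median and highest in wild type. Only 1 cDKO library exceeded the wild-type range, and the log2 fold change was 0.23 ± 0.13 (limma adjusted p = 0.268, 95% interval -0.03 to 0.49). Against wild type of its own set the picture differed: set 3 wild-type libraries ran from 455 to 572, all below the cDKO, which was 1.38-fold higher (exact two-sided permutation p = 0.0179, the smallest of 56 splits; n = 3 and 5). A set is only a position in the table. The wild-type libraries of set 1, coded A like the cDKO libraries A1 and A2, ran from 580 to 741 and overlapped the cDKO. With the column set as covariate Npm1 passed the test at 0.46 (limma adjusted p = 0.0140), the 1 setting of 38 that called it, over a range of adjusted p from 0.0140 to 0.656. Processed pseudogenes of Npm1 exist in the mouse, and how the authors' counting treated them is not stated. Ncl read 52.5, 56.0 and 50.9 in cDKO libraries, against a median of 55.1 in wild type (42.3 to 72.6), a log2 fold change of -0.04 ± 0.14 (adjusted p = 0.894).

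Fbl (fibrillarin), Nop56 and Nop58 are core proteins of the box C/D snoRNPs, in which fibrillarin is the methyltransferase of pre-rRNA. Fbl read 63.7, 41.1 and 36.7 in cDKO, 57.9, 58.4 and 60.6 in Prdm1 cKO, and 66.3, 62.1 and 76.7 in c-Maf cKO libraries, against 27.5, 52.0 and 77.6 as the lowest, median and highest in wild type. All 9 knockout libraries were inside the wild-type range. Its log2 fold change against wild type was -0.16 ± 0.20 in cDKO (limma adjusted p = 0.689), 0.19 ± 0.20 in Prdm1 cKO (adjusted p = 0.628) and 0.40 ± 0.20 in c-Maf cKO (adjusted p = 0.807). Nop56 read 74.2, 63.7 and 71.1 in cDKO libraries, against a median of 70.4 in wild type (36.9 to 94.3). In its own set, where wild type ran from 36.9 to 63.66, cDKO libraries ran from 63.68 to 74.2, apart by a margin far smaller than the spread (1.32-fold, exact two-sided permutation p = 0.0893; n = 3 and 5). Nop58 averaged 54.9 ± 4.97 in cDKO, 65.0 ± 6.92 in c-Maf cKO and 55.2 ± 0.74 in Prdm1 cKO (n = 3 each), against 57.1 ± 12.6 in wild type (n = 16), with log2 fold changes between -0.02 and 0.22.

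Dkc1 (dyskerin) is the pseudouridine synthase of the box H/ACA snoRNPs, and Nolc1 (Nopp140) is a chaperone of both snoRNP classes. Dkc1 read 25.5, 16.6 and 22.5 in cDKO, 21.9, 16.1 and 12.04 in Prdm1 cKO, and 31.5, 32.0 and 26.8 in c-Maf cKO libraries, against 12.8, 21.7 and 37.99 as the lowest, median and highest in wild type. Of the Prdm1 cKO libraries, 1 lay just below all wild-type ones. For Prdm1 cKO against wild type Dkc1 had a log2 fold change of -0.45 ± 0.22 (limma adjusted p = 0.240), the member furthest from 0 in that comparison. Nolc1 read 27.8, 17.5 and 15.9 in cDKO libraries, against a median of 23.5 in wild type (16.3 to 32.0), with a log2 fold change of -0.27 ± 0.18 (adjusted p = 0.373).

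Polr1b is the second largest subunit of RNA polymerase I, and Wdr43 belongs to the small subunit processome that folds and cuts the 18S part of the precursor. Polr1b had the lowest signal of the members in every genotype, and it showed the widest difference between knockout groups. It read 10.1, 4.54 and 5.42 in cDKO, 7.06, 8.33 and 8.45 in Prdm1 cKO, and 14.7, 10.7 and 11.8 in c-Maf cKO libraries, against 4.14, 7.56 and 12.2 as the lowest, median and highest in wild type. The 3 c-Maf cKO libraries lay above 15 of 16 wild-type libraries and above all 4 of their own column set. The log2 fold change of c-Maf cKO against wild type was 0.73 ± 0.24, or 1.66-fold, with an unadjusted p of 0.0047 and a limma adjusted p of 0.695. Within the set it was 1.70-fold higher (12.4 ± 2.06 against 7.05 ± 2.13; exact two-sided permutation p = 0.0571, where 35 splits allow 0.0286; n = 3 and 4). Wdr43 averaged 19.9 ± 3.66 in cDKO, 24.8 ± 3.78 in c-Maf cKO and 18.1 ± 5.36 in Prdm1 cKO (n = 3 each), against 21.9 ± 6.54 in wild type (n = 16), and no comparison called it.

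**Figure D2:**
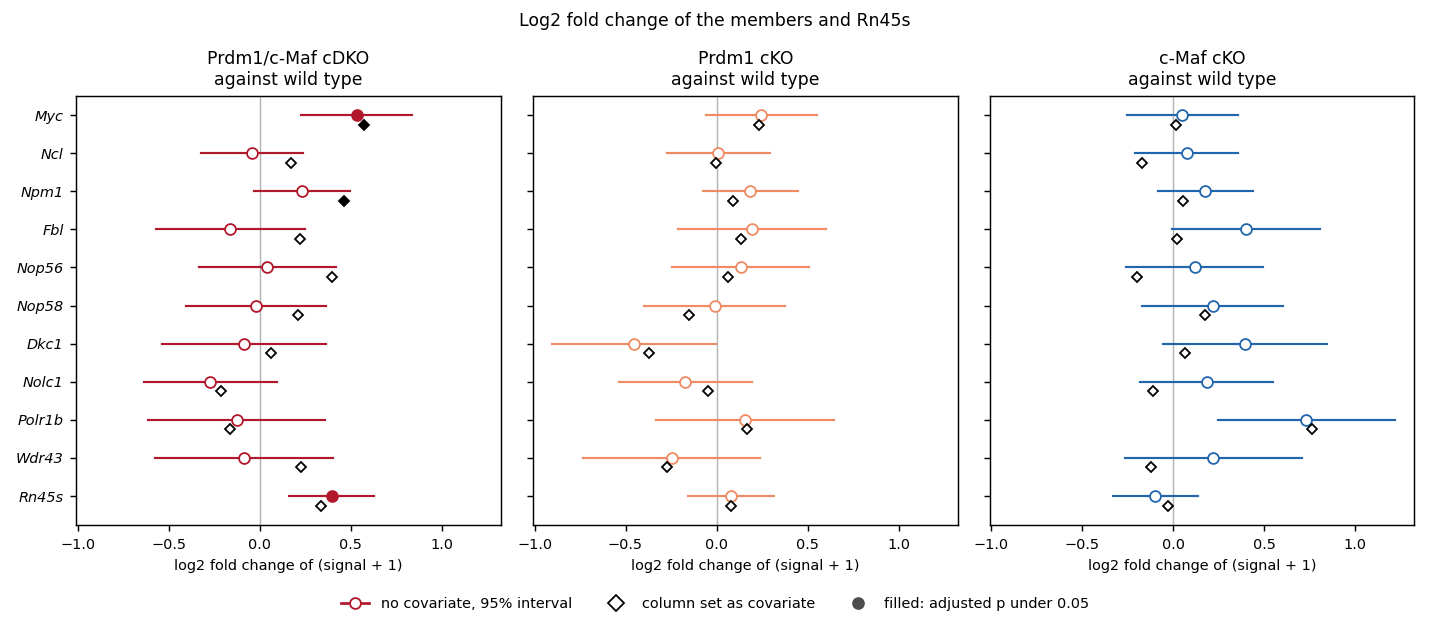
Log2 fold change (x axis) of each member and Rn45s (y axis) for 3 genotypes against wild type, with circles and 95% intervals for the limma fit without covariate and diamonds for the column set as covariate; filled symbols have an adjusted p under 0.05. Myc stands at 0.53 in cDKO, Npm1 passes with the covariate at 0.46, and the members' c-Maf cKO values, all above 0 without the covariate, lie on both sides of 0 with it, Polr1b at 0.76.

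Between genotypes, then, limma called Myc in cDKO against wild type and no other member in any of 6 comparisons. In Prdm1 cKO against wild type 0 of 10 members were called, against 3.45% of all genes (1.58% higher and 1.87% lower), and 1, Dkc1, had an unadjusted p under 0.05. In c-Maf cKO against wild type 0 of 10 members and 0 of 12251 genes were called (0% of genes), while 1 member, Polr1b, and 755 genes had an unadjusted p under 0.05. In cDKO against Prdm1 cKO 0 of 10 were called, against 0.392% of all genes (0.0653% higher and 0.327% lower), with 0 at an unadjusted p under 0.05. In cDKO against c-Maf cKO 0 of 10 were called, against 9.39% of all genes (3.78% higher and 5.61% lower), with 3 (Fbl, Myc and Polr1b) at an unadjusted p under 0.05. There Polr1b differed by -0.86 ± 0.31 (adjusted p = 0.0773, called at 0.0242 without the cDKO library C2) and Fbl by -0.56 ± 0.26 (adjusted p = 0.179), a value that turned to 0.20 with the column set as covariate. For the departure from additivity 0 of 10 were called, against 0.00816% of all genes, with 2 (Fbl and Polr1b) at an unadjusted p under 0.05.

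Set against the wild-type libraries of their own column set alone, 3 of the 10 members (Myc, Npm1 and Nop56) had all cDKO libraries above all wild-type ones, against 7.37% of all genes, and 0 had them all below, against 5.38%. For Prdm1 cKO 0 members were apart in either direction, against 1.65% of genes above and 2.29% below. For c-Maf cKO 1 member, Polr1b, lay above, against 3.06%, and 0 below, against 4.07%. The cDKO and the wild-type libraries of its set share no code letter, so genotype and letter cannot be told apart there.

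No nucleolar gene was called between genotypes, while 2 differed between column sets within wild type. Their median log2 fold change against wild type was -0.09 for cDKO, 0.01 for Prdm1 cKO and 0.22 for c-Maf cKO, beside medians over all genes of -0.03, -0.02 and 0.00. With the column set as covariate the medians were 0.21, -0.0035 and 0.02. Leaving out the library labelled c-Maf cKO with the code C1 gave 0.31 for that group. Rescaling columns to the T cell receptor genes Cd3d, Cd3e and Cd3g shifted the median of all genes to 0.31 for cDKO, 0.37 for Prdm1 cKO and -0.18 for c-Maf cKO, and the nucleolar medians to 0.32, 0.49 and -0.0055.

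In wild type alone, Fbl averaged 53.7 in set 1, 67.6 in set 2 and 39.8 in set 3 (n = 7, 4 and 5; limma F test adjusted p = 0.0129). Nop56 averaged 71.6, 84.8 and 53.6 in the same order (adjusted p = 0.0428). These were 2 of 10 members, against 2.75% of all genes and 2.63% of the 152 other biogenesis genes. Npm1 was lowest in set 3 with 514, against 646 in set 1 and 659 in set 2 (adjusted p = 0.0557), and Ncl likewise with 47.2, against 55.5 and 65.2 (adjusted p = 0.0807). Of the 10 members, 9 were higher in set 2 than in set 3, Polr1b being the exception. Myc averaged 48.8, 50.1 and 47.3 in the 3 sets (adjusted p = 0.943). Between the sets 0 of 20 S phase genes and 4 of 22 G2 and M phase genes were called, or 0% and 18.2% beside 2.75% of all genes (14 and 16 at an unadjusted p under 0.05), with a median of set 2 minus set 3 of 0.56 and 0.71. The part of cycling cells in the set difference of Fbl and Nop56 was not tested.

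**Figure D3:**
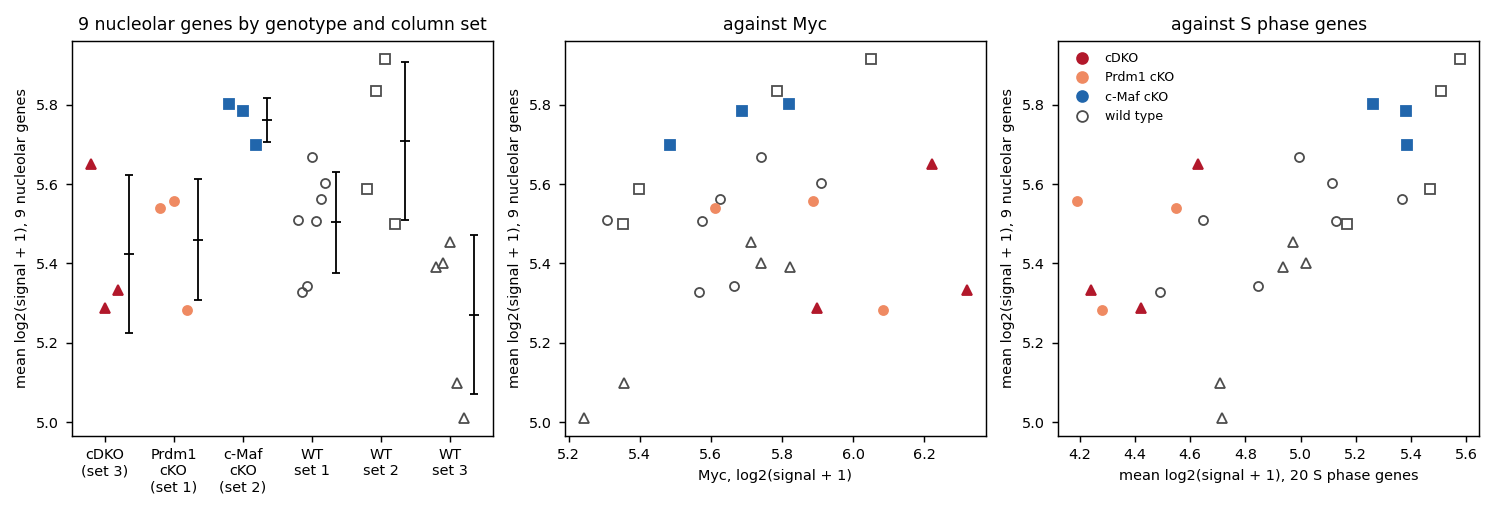
Mean log2(signal + 1) of the 9 nucleolar genes per library (y axis) by genotype and column set, against Myc and against the mean of 20 S phase genes (x axes, log2); colours mark genotypes, shapes column sets, bars the mean and SD. The wild-type libraries average 5.50, 5.71 and 5.27 in sets 1, 2 and 3, and the cDKO libraries lie toward high Myc, with nucleolar means of 5.29, 5.33 and 5.65.

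Across the 16 wild-type libraries, all 36 pairs of the 9 nucleolar genes correlated positively on the log2 scale (Pearson r 0.01 to 0.84, median 0.53), and Myc with each of the 9 (r 0.17 to 0.65, median 0.48). These points share a normalisation, a library each and the column sets, and are given as a description. Their mean followed Myc with r = 0.64 and Spearman rho = 0.51, but r was 0.35 without the 2 libraries farthest from the median of Myc, so that Pearson's r rests on those 2. Within the 7 libraries of set 1 r was 0.35 and rho 0.61. It followed the S phase mean more closely (r = 0.77, rho = 0.76, r = 0.73 without the 2 farthest and 0.63 in set 1). The closest of the 7 relations computed was with 37 Myc target genes outside the nucleolus (r = 0.97, rho = 0.94, r = 0.95 without the 2 farthest and 0.87 in set 1). With ribosomal protein genes it was r = 0.38 and rho = 0.46, with G2 and M phase genes r = 0.61 and rho = 0.65, with Rn45s r = -0.37 and rho = -0.48, and with CD8 T cell markers r = -0.13 and rho = -0.19.

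Over all 25 libraries, the 5 genes whose log2 signal was most like that of Myc were 1810034E14Rik (r = 0.77), 5830411N06Rik (0.76), Cd163l1 (0.75), Tmem108 (0.74) and Eps8l1 (0.72), out of 12241 genes ranked. Those most like the nucleolar mean were Ruvbl2 (0.86), Mrps7 (0.82), Nudc (0.81), Eif4a1 (0.81) and Clns1a (0.81).

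Rn45s, the row named for the 45S precursor that the members help to make or process, was 1.31-fold higher in cDKO than in wild type. It read 71550, 71122 and 74464 in cDKO, 60317, 59408 and 54816 in Prdm1 cKO, and 41548, 51876 and 63055 in c-Maf cKO libraries, against 43429, 53074 and 68176 as the lowest, median and highest in wild type. All 3 cDKO libraries lay above all 16 wild-type libraries, and the share of all genes apart in this way was not computed. That share can be no larger than the 7.37% of genes with all cDKO libraries above the wild-type libraries of set 3 alone. The log2 fold change was 0.40 ± 0.11 (limma adjusted p = 0.0226), and Rn45s took 15.7% ± 0.58 of the summed signal in cDKO (n = 3) against 12.8% ± 1.94 in wild type (n = 16). By this share the groups overlapped, with 15.03% to 16.1% in cDKO against 10.4% to 17.3% in wild type. The call held in 28 of the 37 alternatives that give a value. It ended without any 1 of the 3 cDKO libraries (limma adjusted p = 0.0614 to 0.136) and with the column set (0.34, adjusted p = 0.127), the code letter (0.31, adjusted p = 0.148) or marker scores (0.48, adjusted p = 0.0502) as covariates. It also ended with equal totals without Rn45s (0.35, adjusted p = 0.0995), rescaled to the CD3 genes (0.83, adjusted p = 0.0666) and without the trend and robust options (adjusted p = 0.0769). The labels name an adapted SMART-Seq 2 method. How it captured this RNA, which carries no poly(A) tail, is not given in the sources used here. In this row the precursor and the ribosomal RNA cut from it were not told apart, so a higher value is not a measure of the precursor alone.

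Wider lists place the members among the other genes of the pathway. Of 152 further ribosome biogenesis genes, 1 rose and 8 fell in cDKO against wild type. That is 0.658% higher and 5.26% lower, against 5.09% and 6.85% of all genes. Their median was -0.16, which read -0.07 with the column set and 0.24 when rescaled to the CD3 genes, below that setting's median over all genes. The 8 lower calls became 3 with the column set or marker scores, 2 with the code letter, 4 with quantile normalisation or without a filter, 0 rescaled to the CD3 genes, 4 without the cDKO library A1 and 2 without A2. The snoRNP protein Nhp2 fell by 0.53 ± 0.17 on the log2 scale, to 67.8 ± 15.3 in cDKO against 98.5 ± 19.0 in wild type (limma adjusted p = 0.0379, called in 27 of 38 alternatives). The 40S assembly factors Dcaf13 and Noc4l fell by 0.57 ± 0.18 and 0.56 ± 0.17 (adjusted p = 0.0339 and 0.0348, called in 31 and 30 alternatives). Of the 60S assembly genes, Ebna1bp2 fell by 0.79 ± 0.17 to 8.96 ± 1.10 in cDKO against 16.4 ± 3.40 in wild type (adjusted p = 0.0033, called in 36 alternatives), and Mrto4 by 0.71 ± 0.24 (adjusted p = 0.0468, called in 15). Tex10 was the gene that rose, by 0.64 ± 0.15, to 25.9 ± 3.28 in cDKO against 16.3 ± 2.28 in wild type (adjusted p = 0.0054, called in 36). The exosome partner Mphosph6 fell by 0.89 ± 0.19 (adjusted p = 0.0025, called in 37), and the RNase P and MRP subunit Rpp30 by 0.65 ± 0.18 (adjusted p = 0.0185, called in 32). Of the 14 other RNA polymerase I genes, 0 were called by limma, with a median of 0.01.

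In Prdm1 cKO against wild type 0 of the 152 rose and 2 fell, or 1.32% lower, near the 1.87% of all genes, with a median of -0.13. These were the 60S assembly gene Urb2 (-1.09 ± 0.30, limma adjusted p = 0.0404, called in 24 of 37 alternatives) and the exosome subunit Exosc8 (-0.67 ± 0.19, adjusted p = 0.0492, called in 11 of 38). The median read 0.32 rescaled to the CD3 genes, below that setting's median over all genes. In c-Maf cKO against wild type 0 of 152 were called by limma, 10 had an unadjusted p under 0.05, and the median was 0.11. In cDKO against c-Maf cKO 0 rose and 9 fell, or 5.92% lower, near the 5.61% of all genes, with Wdr18 at -1.13 ± 0.29 and Exosc3 at -1.11 ± 0.28 (adjusted p = 0.0133 and 0.0144); with the column set as covariate 0 of 152 were called there.

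Among the partners of Myc, 1 of 10 tested genes rose in cDKO against wild type, beside 5.09% of all genes. This was Mxd1, which encodes a repressor that competes with Myc for Max. It ran from 41.4 to 48.8 in cDKO, from 19.8 to 64.1 in Prdm1 cKO and from 20.7 to 27.7 in c-Maf cKO, against 17.7 to 37.4 in wild type. The cDKO and wild-type libraries thus did not overlap, and the share of all genes apart in this way was not computed. The log2 fold change of Mxd1 was 0.83 ± 0.22 (limma adjusted p = 0.0132, called in 35 of 38 alternatives), and against c-Maf cKO it was 0.95 ± 0.29 (adjusted p = 0.0352). Max averaged 36.5 ± 7.93 in cDKO against 30.6 ± 4.41 in wild type, with a log2 fold change of 0.24 ± 0.14 (adjusted p = 0.332).

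Of 37 known Myc target genes outside the nucleolus, 0 rose and 5 fell in cDKO against wild type, or 13.5% lower beside 6.85% of all genes. Their median was -0.35, which read -0.16 with the column set (1 higher, 0 lower). It read 0.07 after rescaling to the CD3 genes (0 called), below that setting's median over all genes. Without the cDKO library A2 the count was 1, without C2 2 and without the wild-type library B6 9. The nuclear transport GTPase Ran fell by 0.68 ± 0.15, to 135 ± 10.1 in cDKO against 220.0 ± 40.1 in wild type (limma adjusted p = 0.0043, called in 35 of 38 alternatives). Within wild type alone, Ran also differed between column sets, as did Nme2, Odc1 and Srm (limma F test, adjusted p under 0.05). These were 4 of the 37 targets, or 10.8% beside 2.75% of all genes, and 36 of the 37 were higher in set 2 than in set 3. The splicing factor Hnrnpa1 fell by 0.58 ± 0.15 and the nucleoside diphosphate kinase Nme1 by 0.55 ± 0.14 (adjusted p = 0.0113 and 0.0104, each called in 33). In cDKO against c-Maf cKO the folate enzyme Shmt1 differed most, at -1.96 ± 0.45 (adjusted p = 0.0075).

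Of 79 cytosolic ribosomal protein genes, which encode the ribosome itself, 66 rose and 0 fell in cDKO against wild type, or 83.5% beside 5.09% of all genes, with a median of 0.51. The count was 42 to 76 over the scaling alternatives and 71 with the column set; without the cDKO library C2 it was 42 and without A2 44. Rplp1, of the ribosomal stalk, rose by 0.95 ± 0.13 to 3221 ± 155 in cDKO against 1677 ± 203 in wild type (limma adjusted p = 6.56e-05, called in 38 of 38). Rps28 rose by 0.87 ± 0.13 (called in 38) and Rps27 by 1.23 ± 0.27 (called in 37). In Prdm1 cKO 9 of the 79 rose, beside 1.58% of all genes, with Rpl12 at 0.57 ± 0.12 (adjusted p = 0.0108, called in 34); 0 were called with the column set as covariate and without A6, and 1 without A9. Many ribosomal protein genes have processed pseudogenes that could share their reads.

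In cDKO against wild type 13 of 20 S phase genes and 15 of 22 G2 and M phase genes fell and 0 rose, or 65.0% and 68.2% lower beside 6.85% of all genes, with medians of -0.75 and -0.88. These counts were 3 and 5 with the column set and 0 and 2 after rescaling to the CD3 genes, with medians of -0.32 and -0.49 when so rescaled, and 1 and 11 with the marker scores. Without the cDKO library A2 they were 2 and 1, without A1 3 and 10, and without C2 11 and 9. The primase subunit Prim1 fell by 1.09 ± 0.27 and the mitotic motor Kif11 by 1.27 ± 0.26 (limma adjusted p = 0.0092 and 0.0023, called in 34 and 38 alternatives). In Prdm1 cKO 9 and 2 of them fell, beside 1.87% of all genes, with Mcm3 at -1.10 ± 0.23 (adjusted p = 0.0096, called in 33); 1 and 0 fell without A6, 1 and 1 without A9, and 3 and 1 with the column set. Macrophage markers moved in that group: their summed level was 1766 to 5083 in Prdm1 cKO libraries against 554 to 3093 in wild type. Of 15 tested, 14 were above wild type (median log2 fold change 2.57) and 1 was called higher. CD8 T cell markers were below wild type in 8 of 8 genes (median -0.41, 0 called). Melanoma and erythroid markers were above it in 9 of 9 and 5 of 5 (medians 0.79 and 1.57, 0 called in each). With marker scores as covariates 7 genes in all were called.

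**Figure D4:**
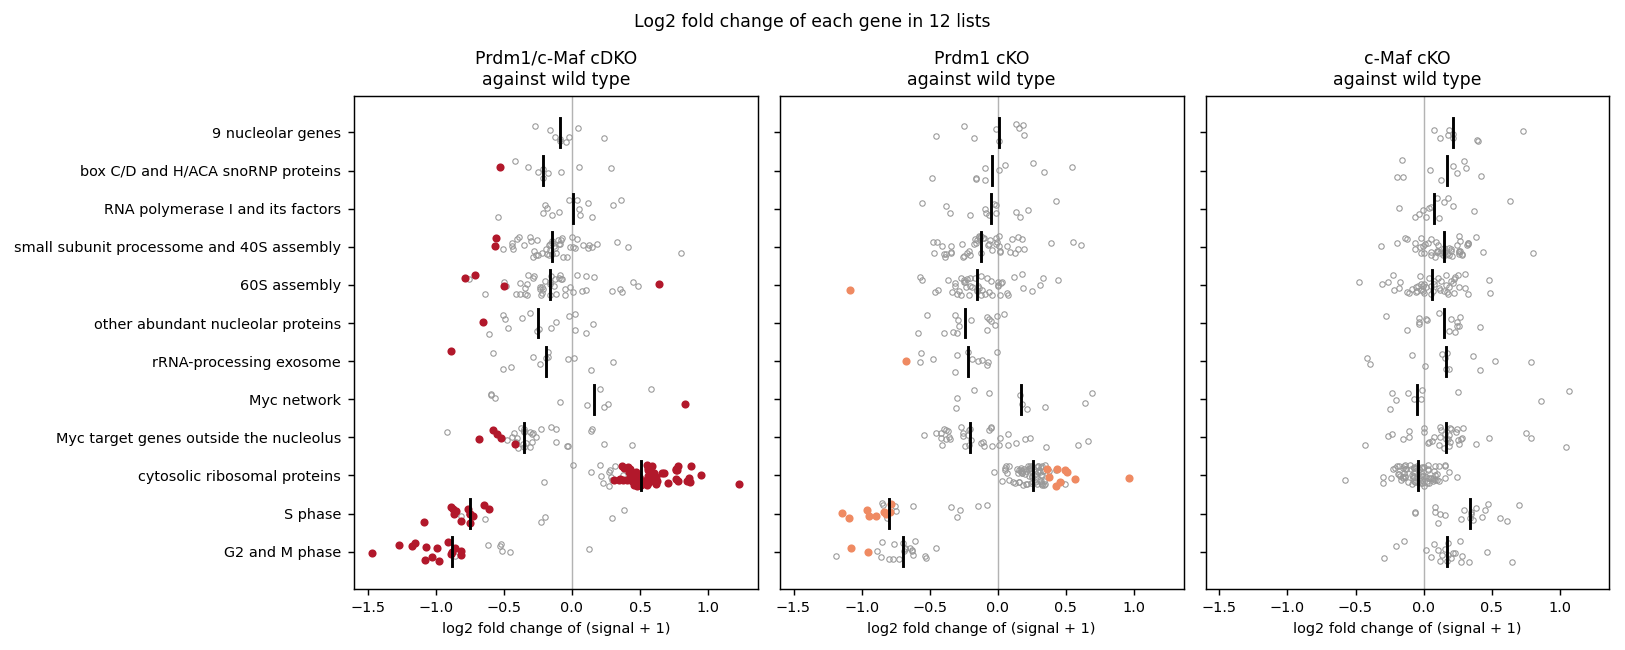
Log2 fold change (x axis) of each gene of 12 lists (y axis) for 3 genotypes against wild type; filled points have a limma adjusted p under 0.05 and bars mark medians. In cDKO the ribosomal protein median is 0.51 and that of the 9 nucleolar genes -0.09. The biogenesis lists other than RNA polymerase I, and also the Myc targets, have medians below 0 there. Rescaled to the CD3 genes, the medians over the 152 genes (0.24) and the targets (0.07) read above 0. Both stay below that setting's median over all genes.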

How the data were processed

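The authors deposited 1 table of normalised signal per gene symbol for 25 libraries, made, per the labels' protocols, with an adapted SMART-Seq 2 method from bulk CD8+ T cell lysates. The submitters' processing notes name TopHat, RSEM, DESeq and the mouse build mm9, with no versions; the order of steps and the normalisation are not given here. Gene coordinates are not printed for that reason, since the reference is GRCm38; promoter windows are RefSeq's. Values are not counts, so read depth is unknown and no counting interval is given. Columns were assigned to genotypes by their names; 0 columns were left out.

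The table was analysed as log2(value + 1), a scale that understates the changes of low genes. Genes that reached 1 in 3 or more libraries went into limma 3.58.1 in R 4.3.3 (trend and robust options, all libraries in 1 model, no covariate), with Benjamini-Hochberg adjusted p under 0.05 as the threshold; the code was tested on simulated data. Single genes were compared within column sets by exact two-sided permutation tests (33 tests, unadjusted, scipy 1.17.1). These were an alternative added after seeing the data, as was the F test between wild-type sets. With Benjamini-Hochberg adjustment over the 33 permutation tests, none passed the threshold. The lowest adjusted p of these permutation tests was 0.295, for Myc and Npm1 in cDKO. The 38 alternatives were 13 other settings and 25 fits without 1 library.

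The members and gene lists were chosen with earlier results of these data known. Named were all members, Rn45s, up to 3 called genes with the largest change per list and comparison (given here in part), the 5 genes most like Myc and the nucleolar mean, and Prdm1 and Maf. Wild-type and knockout column sets, code letters and marker scores were tried as covariates.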

Additional observations from a re-analysis of the deposited data

How the results depend on the processing

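No paired analysis was possible because the columns carry no replicate numbers. Depth per library is unknown, so what it limits cannot be stated.

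With the column set as covariate the number of genes called was 59 for Prdm1 cKO and 0 for cDKO against Prdm1 cKO, 132 for cDKO against c-Maf cKO and 0 for the departure from additivity, and 2 members were called in cDKO against wild type. With the code letter it was 36 for Prdm1 cKO, 167 and 601 for cDKO against each single knockout and 31 for additivity. With marker scores it was 713 for cDKO, 7 for Prdm1 cKO, 0 and 431 for cDKO against Prdm1 cKO and c-Maf cKO and 0 for additivity, and 0 members were called in cDKO. Equal totals without Rn45s gave 635 for Prdm1 cKO and 13 for additivity. For c-Maf cKO the count was 6 with a pseudocount of 0.1, 1 with 10, 17 without a filter, 1 with only the groups compared and 4 without the trend and robust options. For cDKO against Prdm1 cKO it was 103 with a pseudocount of 10, 77 without a filter and 95 with only the groups compared, and for cDKO against c-Maf cKO 681 with only those groups. For additivity it was 21 and 15 with pseudocounts of 0.1 and 10, 7 without a filter, 0 with a minimum of 10, 18 with quantile normalisation and 14 without trend and robust options. In cDKO against c-Maf cKO 1 member, Myc, was called when rescaled to the CD3 genes and with quantile normalisation; Fbl read 0.20 there with the column set and 0.083 with the CD3 genes. The correlation of Myc with the nucleolar mean was 0.346 without the 2 farthest libraries and 0.349 within column set 1.

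Leaving out 1 library at a time gave 511 to 1697 genes for cDKO, 78 to 689 for Prdm1 cKO, 0 to 1 for c-Maf cKO, 3 to 142 and 432 to 1312 for cDKO against Prdm1 cKO and c-Maf cKO, and 1 to 92 for additivity; 0 to 1 members were called in cDKO against wild type and against c-Maf cKO, and 0 in the others.

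Members that changed sign all did so without a call, since the call of Myc kept its direction in all 38 alternatives. In cDKO, the column set gave Ncl 0.17, Fbl 0.22, Nop58 0.21, Dkc1 0.059 and Wdr43 0.23, and the CD3 genes gave Ncl 0.38, Fbl 0.26, Nop58 0.40, Dkc1 0.32, Nolc1 0.14, Polr1b 0.23 and Wdr43 0.32. The code letter gave Ncl 0.0038 and Nop56 -0.0012, equal totals without Rn45s Nop56 -0.00088, marker scores Nop58 0.016 and Polr1b 0.18, median-of-ratios rescaling Nop58 0.0023, and quantile normalisation Ncl 0.12 and Nop58 0.14. In Prdm1 cKO, the CD3 genes gave Nop58 0.47, Dkc1 0.0091, Nolc1 0.29 and Wdr43 0.22, the column set Ncl -0.0035, equal totals without Rn45s Ncl -0.036, median-of-ratios rescaling Nop58 0.037, quantile normalisation Nop58 0.044 and marker scores Nolc1 0.13. In c-Maf cKO, the CD3 genes gave Myc -0.17, Ncl -0.15, Npm1 -0.048, Nop56 -0.10, Nop58 -0.0055 and Nolc1 -0.034, the column set Ncl -0.17, Nop56 -0.20, Nolc1 -0.11 and Wdr43 -0.12, the code letter Nolc1 -0.0050 and quantile normalisation Myc -0.012. Leaving out 1 library at a time gave ranges that cross 0 in cDKO for Nop56 (-0.016 to 0.10), Nop58 (-0.082 to 0.054), Dkc1 (-0.22 to 0.080), Polr1b (-0.42 to 0.075) and Wdr43 (-0.22 to 0.022), in Prdm1 cKO for Ncl (-0.077 to 0.098), Nop58 (-0.070 to 0.015) and Wdr43 (-0.41 to 0.0049), and in c-Maf cKO for Myc (-0.029 to 0.14), Ncl (-0.062 to 0.16) and Rn45s (-0.25 to 0.056). The cause of these shifts was not tested. For members, Rn45s and listed genes in the comparisons where they are named by rule or have values given, 3014 values kept direction and side of the threshold, 365 lost the call, 4 gained it (Npm1, Myc in 2 settings and Polr1b) and 71 changed sign. Quantile normalisation gives no value for Rn45s, the top gene of every library.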
